A study of Mus musculus with 8 samples.

Results

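The amino acid transporter genes of the SLC1, SLC3, SLC6, SLC7, SLC36, SLC38 and SLC43 families were examined in the livers of db/db mice and control mice. They were taken by gene symbol, as every symbol that begins with one of these family names followed by a member number. No expression value entered this rule, but the families were chosen with earlier results of these data known. The table lists 63 such genes among 22564, of which 7 belong to Slc1, 2 to Slc3, 20 to Slc6, 16 to Slc7, 4 to Slc36, 11 to Slc38 and 3 to Slc43. Among them, Slc7a6os, carries the name of its neighbour Slc7a6 but does not encode a carrier, so the set holds 62 carriers or carrier subunits. A further 306 listed genes have another Slc symbol.

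Total RNA of whole liver was depleted of ribosomal RNA and sequenced in 4 libraries from db/db mice and 4 from control mice of the C57BL/6 strain, all given as untreated. db/db mice lack a functional leptin receptor throughout the body, overeat, and become obese, diabetic and fatty in the liver. The strain label of the db/db libraries reads only db/db, and the background strain of these mice is not given. Per the study's methods, the db/db animals and its C57BL/6J mice had different suppliers, and the db/db animals were bought younger. The age at collection of these livers is not given, so genotype, background strain, supplier and age cannot be told apart. No label says which libraries come from separate animals, and the p-values below therefore measure the spread between libraries.

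The liver takes up most of the amino acids that reach it in portal blood, turns them into glucose, urea, glutathione and plasma proteins, and returns glutamine to the circulation. Sodium-coupled carriers of the SLC1, SLC6 and SLC38 families can concentrate amino acids inside the cell, while most SLC7 carriers exchange one amino acid for another and many of them reach the membrane only in a pair with an SLC3 heavy chain. Carriers of lysosomes, among them members of SLC36 and SLC38, move amino acids across the lysosomal membrane, where the kinase complex mTORC1 senses them.

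Expression was given as FPKM, a fragment count scaled to transcript length and to library size, which corrects for length and so can be set between genes. A gene entered the test when 4 or more of the 8 libraries held 1 FPKM or more, and limma was run on log2(FPKM + 1), and p-values were adjusted over all 9863 genes tested, with 0.05 as the threshold. Fold changes in the text are db/db over control on that scale, which understates the change of weakly expressed genes. Of the 63 genes, 21 were tested, 23 were detected but fell under the filter, and 19 were listed at 0 in all 8 libraries. The relative depth was 0.91 to 1.09 in db/db libraries and 0.81 to 1.00 in control libraries, taking control replicate 1 as 1, and 9592 to 9948 genes reached 1 FPKM in a library. An exact 0 in this table can be a failed estimate, since Alb, the albumin gene, was listed at 0 in all 8 libraries.

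Among the 21 tested genes, Slc38a10 rose and Slc3a1 and Slc36a1 fell in db/db liver. Of 16 alternative settings, the call held in 16 for Slc3a1, in 13 for Slc38a10 and in 9 for Slc36a1. Slc6a8 was called lower as well, but it passed the filter through the control libraries alone and so had to be lower. The gene called higher was 4.76% of those tested, beside 16.0% of all genes, and the 3 called lower were 14.3%, beside 11.6% of all genes. Without the genes that passed the filter through 1 group alone, a choice made after seeing the data, 1 of 20 members was higher and 2 were lower, 5.0% and 10.0%, beside 15.1% and 11.2% of all genes. In either direction 19.0% of the members were called, beside 27.7% of all genes. The other 17 did not pass the test. The median log2 fold change of the members was -0.08, against 0.04 over all tested genes. Of the 161 tested genes with another Slc symbol, 38 (23.6%) were higher and 12 (7.45%) lower, and their median was 0.12. Groups did not overlap with db/db higher in 1 member, which is 4.76% beside 17.3% of all genes, and with db/db lower in 2 members, which is 9.52% beside 12.1%, and 1 of these 2 is Slc6a8. At an unadjusted p under 0.05, 1 member was higher and 6 were lower, beside 22.9% and 16.8% of all genes. When a log2 change over 1.5 was also required, 0 members were called in either direction by limma, beside 1.54% and 1.21%, and when a 1.5-fold change was required, 0 were higher and 3 (Slc38a2, Slc3a1 and, fixed by the filter, Slc6a8) lower, beside 10.1% and 7.43%.

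**Figure D1:**
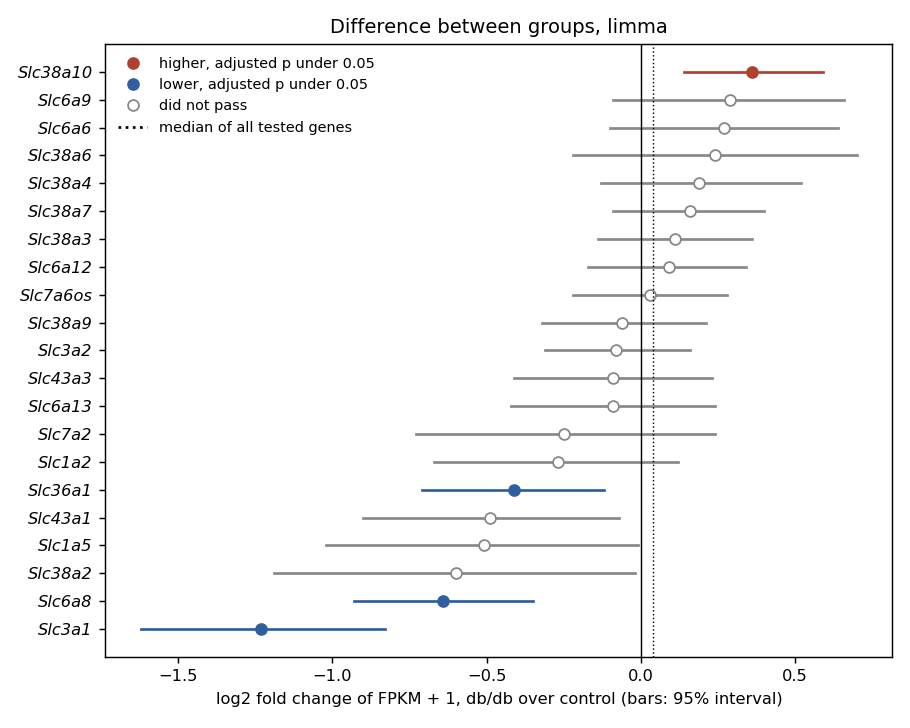
Log2 fold change of FPKM + 1 in db/db over control liver for each of the 21 tested genes, with 95% intervals from limma; the dotted line is the median of all tested genes. The interval of Slc3a1 runs from -1.62 to -0.83 and that of Slc38a10 from 0.14 to 0.59, while most of the other intervals cross 0.

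Sodium-coupled carriers of neutral amino acids at the hepatocyte surface made up most of the signal. Slc38a3, which encodes SNAT3, a system N carrier for glutamine, asparagine and histidine that can run in both directions, lies at chr9:107650634-107669530 on the minus strand of GRCm38. Its level was 574.2, 437.6, 467.8 and 435.5 FPKM in the 4 db/db libraries and 459.8, 445.3, 453.0 and 405.5 FPKM in the 4 control libraries. The groups overlapped, with db/db replicate 1 above all others, and the mean of 478.8 ± 65.3 against 440.9 ± 24.3 FPKM (SD, n = 4 each) gave a log2 fold change of 0.11 (95% interval -0.14 to 0.36, adjusted p = 0.505). Slc38a4, which encodes SNAT4, a system A carrier for alanine and other small neutral amino acids that in mice is an imprinted gene, lies at chr15:96994820-97055956. It was at 404.0, 276.8, 244.4 and 274.0 FPKM in db/db liver and at 244.5, 260.0, 252.9 and 271.1 FPKM in control liver. Here too only db/db replicate 1 stood well above the control range, and the log2 fold change was 0.19 (95% interval -0.13 to 0.52, adjusted p = 0.356).

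Slc38a3 and Slc38a4 together held 72.7% ± 0.774 of the summed FPKM of all 63 genes in db/db liver and 68.9% ± 0.931 in control liver (SD, n = 4 each). The sum over the 63 genes was 1333, 997, 983 and 970 FPKM in the db/db libraries and 1019, 1007, 1041 and 984 FPKM in the control libraries. Apart from db/db replicate 1, these sums lay close together. As a share of all FPKM they were 0.161% to 0.24% in db/db libraries and 0.152% to 0.156% in control libraries, so that every db/db library was above every control library. The total FPKM over all genes was lower in db/db libraries, 555661 to 602391 against 641355 to 676884. The sums over the 63 genes overlapped between the groups, and a share depends on both the sum and this total. The higher share is therefore not given as a rise of the carriers, and the part of each was not tested. Mitochondrially encoded genes, a part of the total, summed to 36556 to 42140 against 50861 to 61316 FPKM, and some of their zeros in db/db libraries can be failed estimates.

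Slc38a2 encodes SNAT2, a second system A carrier, which in cultured mammalian cells is induced by amino acid shortage. It lies at chr15:96687392-96699730, on the same chromosome and strand as Slc38a4. It was at 31.2, 19.7, 13.5 and 13.2 FPKM in db/db libraries and at 22.9, 22.3, 31.7 and 38.7 FPKM in control libraries. In db/db liver 3 libraries were below every control library and replicate 1 was not, so the groups overlapped. The log2 fold change was -0.60 (95% interval -1.19 to -0.02) and did not pass after adjustment (adjusted p = 0.117). Without db/db replicate 1, its highest db/db library, it was -0.85 with an adjusted p of 0.0156, the only 1 of 16 alternatives in which it was called. The remaining surface carriers of these systems were weak: Slc38a1 reached at most 0.124 FPKM and Slc38a5 at most 0.111 FPKM, and Slc38a8 was listed at 0.

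**Figure D2:**
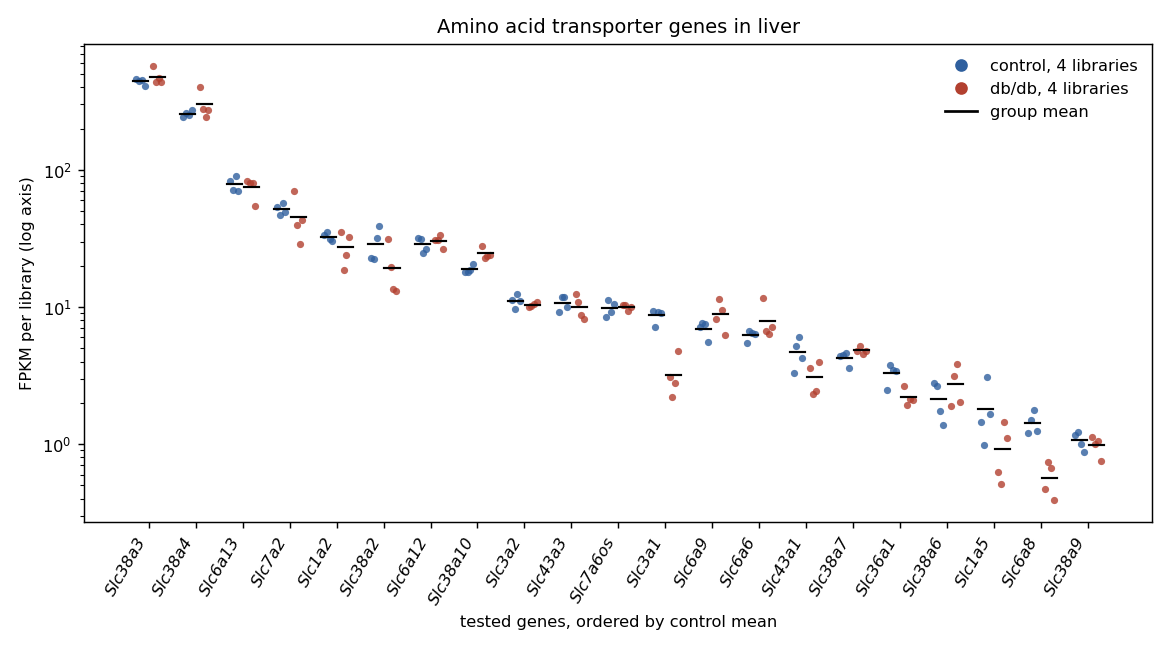
FPKM of the 21 tested genes in each library on a log axis, ordered by the control mean, with points for the 4 db/db and 4 control libraries and bars for group means. Slc38a3 and Slc38a4 lie above 240 FPKM in all 8 libraries, and the groups of Slc3a1 do not overlap.

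In control liver the order of levels below Slc38a3 and Slc38a4 was Slc6a13 at 78.7 ± 9.97, Slc7a2 at 51.6 ± 4.55, Slc1a2 at 32.5 ± 2.12, Slc38a2 at 28.9 ± 7.79, Slc6a12 at 28.6 ± 3.47 and Slc38a10 at 18.8 ± 1.18 FPKM (SD, n = 4 each). Libraries of neighbours in this order did not overlap, except that Slc1a2, Slc38a2 and Slc6a12 overlapped with one another. Slc3a2 at 11.1 ± 1.14 FPKM and Slc43a3 at 10.6 ± 1.30 FPKM followed and overlapped.

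Slc38a10 was the member that rose. It encodes a widely expressed SLC38 protein for which transport of glutamine, alanine and related amino acids has been described and whose role in liver is less settled, and it lies at chr11:120103960-120151346 on the minus strand. Its level was 27.8, 22.8, 23.5 and 24.1 FPKM in db/db liver and 18.1, 17.9, 18.8 and 20.5 FPKM in control liver. Every db/db library was above every control library. The mean was 24.6 ± 2.23 against 18.8 ± 1.18 FPKM (SD, n = 4 each), a log2 fold change of 0.36 (SE 0.10, adjusted p = 0.0221). The call was lost without db/db replicate 1 (adjusted p = 0.0515), without control replicate 1 (0.0627) and without control replicate 2 (0.0559), and the range over all 16 alternatives was 0.0194 to 0.0627. An antisense gene, Gm11769, overlaps its exons, and whether strand was used in counting is not given.

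The SLC3 heavy chains are not carriers themselves but bring SLC7 light chains to the membrane. Slc3a1 encodes rBAT, the partner of the cystine and basic amino acid exchanger in kidney and intestine, and lies at chr17:85028376-85064236 on the plus strand. It was at 3.10, 2.22, 2.77 and 4.78 FPKM in db/db liver and at 9.39, 7.10, 9.16 and 9.06 FPKM in control liver. All db/db libraries were below all control libraries, and the control libraries other than replicate 2 lay within a narrow range. The mean fell from 8.68 ± 1.06 to 3.22 ± 1.10 FPKM (SD, n = 4 each), 0.371 of the control level, with a log2 fold change of -1.23 (SE 0.18, adjusted p = 0.000618). The call held under all 16 alternatives. Slc3a1 overlaps Prepl, a peptidase-like gene on the opposite strand, and the table lists both under one locus. Prepl was at 4.93 ± 0.707 FPKM in db/db and 4.10 ± 0.197 FPKM in control liver (SD, n = 4 each), with a log2 fold change of 0.21 (adjusted p = 0.207).

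The light chains known to pair with Slc3a1 were not seen at a comparable level. Slc7a9, its main partner, was listed at 0 in all 8 libraries, and Slc7a13, a partner in mouse kidney, reached at most 0.173 FPKM in db/db liver and was at 0 in control liver.

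Slc3a2 encodes CD98 heavy chain, which pairs with the light chains Slc7a5, Slc7a6, Slc7a7, Slc7a8, Slc7a10 and Slc7a11 and lies at chr19:8706882-8723369. It was at 10.1, 10.2, 10.5 and 10.8 FPKM in db/db and at 11.2, 9.59, 12.4 and 11.0 FPKM in control libraries. The db/db values lay inside the control range, and the log2 fold change was -0.08 (95% interval -0.31 to 0.16, adjusted p = 0.626). Its 6 light chains summed to 1.07, 1.47, 0.823 and 1.01 FPKM in db/db libraries and to 2.43, 1.38, 1.63 and 1.47 FPKM in control libraries. The heavy chain was thus at 6.92 to 12.8 times the sum of its partners in db/db liver and at 4.63 to 7.58 times in control liver, ranges that overlap.

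No light chain passed the filter on low values. Slc7a5, LAT1, the exchanger for leucine and other large neutral amino acids, was at 0.204, 0.284, 0.123 and 0.0496 FPKM in db/db and at 0.840, 0.411, 0.476 and 0.619 FPKM in control libraries. The groups did not overlap, and every db/db library was below 0.3 FPKM. In a fit with no filter, where 10.0% of 15840 genes were called higher and 6.9% lower, Slc7a5 was called lower with a log2 fold change of -0.44 (SE 0.10, adjusted p = 0.0172). The table lists Slc7a5 in one locus with 74 other genes, which leaves its level less certain. Slc7a7, which exports basic amino acids, and Slc7a8, LAT2, overlapped between the groups at 0.119 to 0.773 FPKM and 0.290 to 0.789 FPKM over all libraries. Slc7a6 reached at most 0.126 FPKM. Slc7a11, the cystine and glutamate exchanger that supplies cysteine for glutathione and is a target of NRF2, was at 0, 0.00618, 0.0130 and 0 FPKM in db/db libraries and was listed at 0 in all control libraries.

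**Figure D3:**
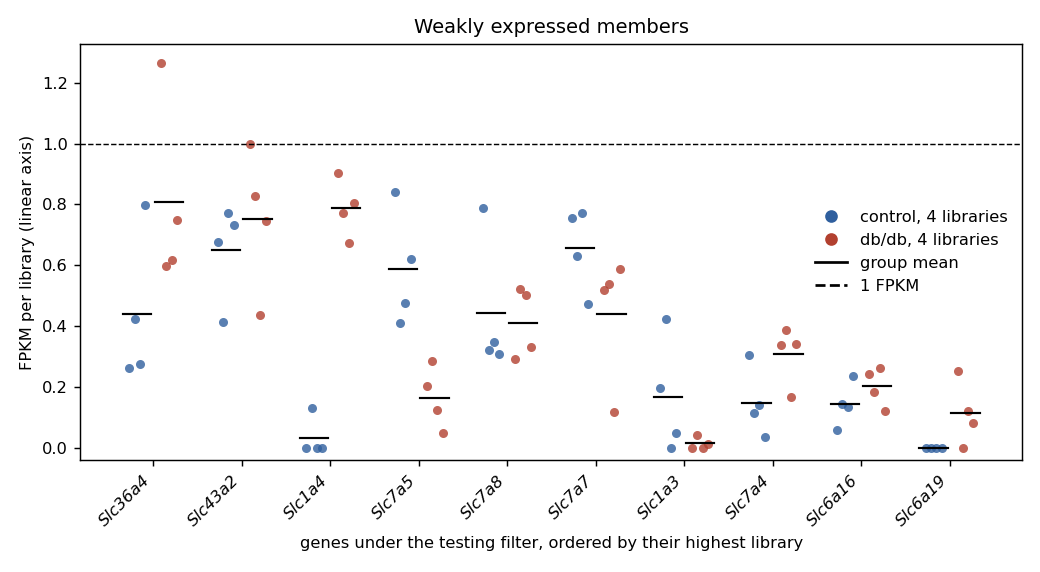
FPKM per library on a linear axis for the 10 genes under the testing filter with the highest single libraries, with points for the 4 db/db and 4 control libraries and the dashed line at 1 FPKM. Slc1a4 and Slc7a5 have groups that do not overlap, in opposite directions, and Slc36a4 alone has a library above 1 FPKM.

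Carriers of basic amino acids were represented by Slc7a2. It encodes CAT2, which takes up arginine, lysine and ornithine in hepatocytes, and lies at chr8:40862396-40922308. Its level was 70.5, 39.5, 28.8 and 43.1 FPKM in db/db liver and 53.3, 46.7, 57.1 and 49.4 FPKM in control liver. Replicates 2, 3 and 4 of db/db were below every control library and replicate 1 was above them all. The log2 fold change was -0.25 (95% interval -0.73 to 0.24, adjusted p = 0.432). Without db/db replicate 1 it was -0.48 with an adjusted p of 0.0376, the only 1 of 16 alternatives in which it was called. Slc7a1, the widely expressed CAT1, was at 0.0168 to 0.107 FPKM and Slc7a3 was listed at 0.

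Slc1a2, which encodes the glutamate carrier GLT-1 and in rodent liver is found in the hepatocytes next to the central vein, lies at chr2:102658659-102790784. It was at 34.9, 18.6, 24.0 and 32.4 FPKM in db/db and at 33.6, 35.0, 31.1 and 30.5 FPKM in control libraries. The control libraries lay close together, db/db replicates 2 and 3 were below them, and the log2 fold change was -0.27 (95% interval -0.67 to 0.12, adjusted p = 0.277). The remaining glutamate carriers were weak: Slc1a3 reached at most 0.423 FPKM, Slc1a6 0.0340 FPKM and Slc1a7 0.124 FPKM, and Slc1a1 was listed at 0. Glul, glutamine synthetase of the same pericentral hepatocytes, was at 239 ± 7.02 FPKM in db/db and 247 ± 33.4 FPKM in control liver (SD, n = 4 each, adjusted p = 0.824).

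The SLC6 family carries osmolytes and creatine as well as amino acids. Slc6a13, GAT2, a carrier of taurine and GABA at the hepatocyte surface, and Slc6a12, BGT1, a carrier of betaine and GABA, are neighbours at chr6:121300227-121337733 and chr6:121343076-121365775. Slc6a13 was at 83.0, 79.8, 80.8 and 54.8 FPKM in db/db and at 83.5, 71.4, 90.5 and 69.5 FPKM in control libraries, and Slc6a12 was at 26.6 to 33.3 and 24.9 to 31.9 FPKM. The groups overlapped for both, db/db replicate 4 was the lowest library for Slc6a13, and the log2 fold changes were -0.09 (95% interval -0.42 to 0.24, adjusted p = 0.697) for Slc6a13 and 0.09 (95% interval -0.17 to 0.34, adjusted p = 0.62) for Slc6a12. Slc6a6, TauT, the high-affinity taurine carrier, was at 11.5, 6.68, 6.34 and 7.12 FPKM in db/db and at 5.45, 6.66, 6.46 and 6.36 FPKM in control libraries. Apart from db/db replicate 1 its libraries overlapped, and the log2 fold change was 0.27 (95% interval -0.10 to 0.64, adjusted p = 0.263).

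Slc6a8, the creatine carrier, lies at chrX:73673150-73682502. Its level was 0.471, 0.742, 0.665 and 0.389 FPKM in db/db and 1.21, 1.51, 1.77 and 1.25 FPKM in control libraries. No db/db library reached 1 FPKM and every control library did, so the direction and the lack of overlap were fixed by the filter. The mean was 0.567 ± 0.165 against 1.43 ± 0.260 FPKM (SD, n = 4 each), 0.395 of the control level, with a log2 fold change of -0.64 (SE 0.13, adjusted p = 0.00499). Leaving out any control library removed it from the test. In the fit with no filter, which does not fix the direction, it was called lower (log2 fold change -0.64, adjusted p = 0.00656), beside 6.9% of all genes. Its calls in the remaining alternatives rest on the same separation and give the difference no further support.

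Slc6a9, GlyT1, the glycine carrier, was at 8.21, 11.4, 9.51 and 6.21 FPKM in db/db and at 7.15, 7.62, 7.46 and 5.53 FPKM in control libraries. In db/db liver 3 libraries were above every control library and replicate 4 was not, and the log2 fold change was 0.29 (95% interval -0.09 to 0.66, adjusted p = 0.235). Its locus in the table is shared with B4galt2 and Ccdc24. In the SLC6 family 10 genes were listed at 0, among them the GABA carrier Slc6a11, the dopamine and noradrenaline carriers Slc6a3 and Slc6a2, and Slc6a5, Slc6a14, Slc6a15, Slc6a17, Slc6a18 and Slc6a20a. Slc6a19, the neutral amino acid carrier of intestine and kidney, was listed at 0 in control liver and reached 0.251 FPKM in db/db liver, and Slc6a20b likewise reached 0.120 FPKM. Slc6a16, Slc6a7 and the serotonin carrier Slc6a4 were at most 0.263, 0.0772 and 0.197 FPKM.

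Carriers that act on lysosomes included the third gene that fell. Slc36a1, PAT1, a proton-coupled carrier of glycine, alanine and proline that is found on lysosomes and takes part in mTORC1 activation, lies at chr11:55204350-55236330. It was at 2.63, 1.93, 2.13 and 2.11 FPKM in db/db liver and at 2.49, 3.76, 3.46 and 3.39 FPKM in control liver. Control replicate 1 was below db/db replicate 1, so the groups overlapped. The mean was 2.20 ± 0.301 against 3.27 ± 0.547 FPKM (SD, n = 4 each), 0.672 of the control level, with a log2 fold change of -0.41 (SE 0.13, adjusted p = 0.0418). It was called in 9 of 16 alternatives, with adjusted p from 0.0176 to 0.108. It was lost with no filter (0.0689) and on leaving out db/db replicate 2 (0.108), 3 (0.0837) or 4 (0.0944) or control replicate 2 (0.0997), 3 (0.0865) or 4 (0.0857).

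The lysosomal members of SLC38 did not pass the test. Slc38a9, an arginine-gated amino acid efflux carrier and mTORC1 sensor, was at 0.757 to 1.12 FPKM in db/db and 0.882 to 1.22 FPKM in control liver (log2 fold change -0.06, adjusted p = 0.749). Slc38a7, which exports glutamine and asparagine from lysosomes, was at 4.57 to 5.21 and 3.57 to 4.59 FPKM (log2 fold change 0.16, adjusted p = 0.327). Slc36a4 was at 1.26, 0.599, 0.616 and 0.750 FPKM in db/db and at 0.263, 0.423, 0.277 and 0.798 FPKM in control libraries, under the filter and overlapping, and Slc36a2 and Slc36a3 were listed at 0.

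Large neutral amino acids also leave cells through the SLC43 uniporters. Slc43a1, LAT3, which carries leucine, isoleucine, valine and phenylalanine, was at 3.59, 2.33, 2.42 and 3.94 FPKM in db/db and 3.32, 5.22, 6.09 and 4.26 FPKM in control libraries. The groups overlapped through control replicate 1, and the log2 fold change of -0.49 (95% interval -0.90 to -0.07) did not pass after adjustment (adjusted p = 0.0774). It passed after quantile normalization (adjusted p = 0.0436) and without control replicate 1 (0.0396). Slc43a2, LAT4, was at 0.415 to 1.00 FPKM over all libraries. Slc43a3, which carries purine nucleobases and not amino acids, was at 8.11 to 12.4 FPKM in db/db and 9.16 to 11.7 FPKM in control liver (adjusted p = 0.682).

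Among the exchangers of small neutral amino acids, Slc1a5, ASCT2, a glutamine exchanger, was at 0.631, 0.508, 1.45 and 1.11 FPKM in db/db and at 1.45, 0.993, 3.07 and 1.65 FPKM in control libraries. The groups overlapped (log2 fold change -0.51, 95% interval -1.02 to -0.01, adjusted p = 0.122). Slc1a4, ASCT1, an exchanger of alanine, serine and cysteine, stayed under the filter. It was at 0.905, 0.771, 0.674 and 0.805 FPKM in db/db libraries. In control replicate 2 it was at 0.130 FPKM, and in the other control libraries it was listed above 0 but below 0.0001 FPKM. Values that small are fitted estimates and not fragments, and 344 genes of the table have one, so no fold is given. In the fit with no filter Slc1a4 was called higher (log2 fold change 0.79, which depends on the added 1, adjusted p = 0.000142). The table lists Slc1a4 in a locus of 553036 bases with Actr2, Cep68, Rab1 and Spred2, while its annotated span is 30534 bases, and whether fragments were assigned among these genes in the same way in both groups was not tested. The exchangers Slc7a10 and Slc7a12 were listed at 0.

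The other tested genes were Slc38a6, an SLC38 protein of less certain role at 1.89 to 3.86 FPKM in db/db and 1.38 to 2.78 FPKM in control liver (adjusted p = 0.42), and Slc7a6os at 9.40 to 10.4 and 8.40 to 11.3 FPKM (adjusted p = 0.864). Only 40.7% of the 31-base words of the Slc38a6 transcript occur in no other gene, so its level is uncertain. The weak genes Slc38a11, Slc7a4 and Slc7a15 reached at most 0.171, 0.386 and 0.198 FPKM, and Slc7a14 was listed at 0.

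**Figure D4:**
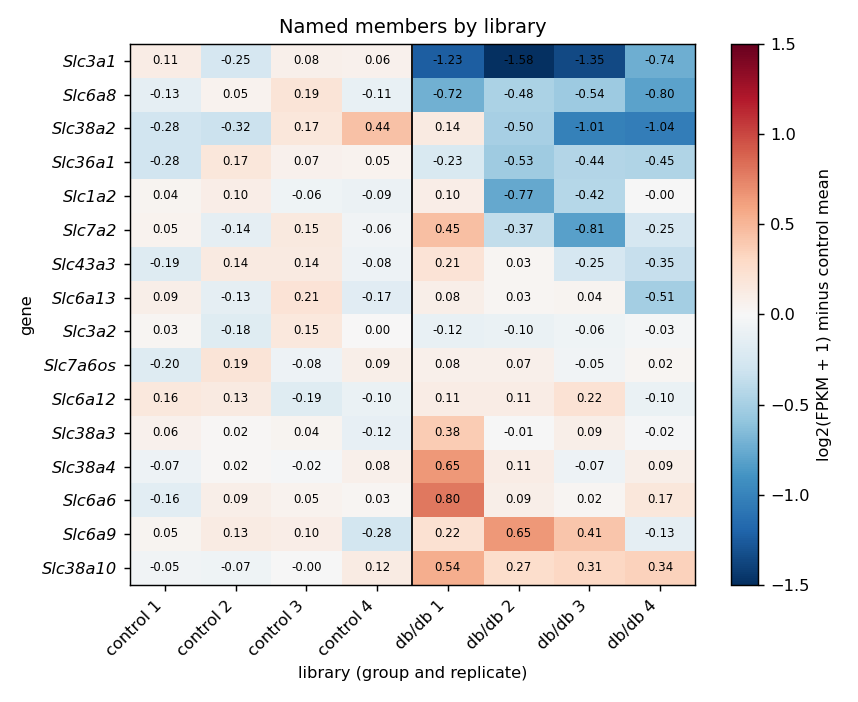
Log2(FPKM + 1) minus the control mean for the 16 genes that were called or had a group mean of at least 5 FPKM, in each of the 8 libraries. The column of db/db replicate 1 is above the other db/db libraries in 11 of the 16 genes, and the row of Slc3a1 runs from -1.58 to -0.74 in the db/db libraries.

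db/db replicate 1 stood apart among these genes. In the 16 genes that were called or had a group mean of at least 5 FPKM, it was above the other 3 db/db libraries in 11 (68.8%), within them in 4 and below them in 1. Over all 6367 tested genes with a group mean of at least 5 FPKM it was above in 32.7%. Slc36a1 and Slc6a8 are below that level and are among the 16 only because they were called. Without it, no member was called higher by limma, beside 13.5% of all genes. The 5 called lower were Slc36a1, Slc38a2, Slc3a1, Slc7a2 and, fixed by the filter, Slc6a8, beside 10.8% of all genes. The library was singled out after its values were seen. It was the highest db/db library for Slc36a1, Slc38a2 and Slc7a2, so leaving it out had to lower their db/db means. Slc38a2 and Slc7a2 were called in only 1 of 16 alternatives, this one. This library also had the greatest relative depth of the 8, and the part of depth in its values was not tested.

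Other amino acid and peptide carriers were described from a list of 22 listed genes outside these families, of which 16 were tested. The 1 called higher was 6.25% and the 2 called lower were 12.5%, beside 16.0% and 11.6% of all genes. Slc15a4, a lysosomal carrier of histidine and peptides, rose, from 4.85 to 7.08 FPKM in control libraries to 7.58 to 12.4 FPKM in db/db libraries (log2 fold change 0.72, adjusted p = 0.00783). Slc16a10, the uniporter TAT1 of aromatic amino acids, fell from 15.9 ± 2.20 to 10.6 ± 0.788 FPKM (SD, n = 4 each, log2 fold change -0.54, adjusted p = 0.00742). Pqlc2, a lysosomal exporter of basic amino acids, fell as well (log2 fold change -0.59, adjusted p = 0.0211). Of the listed partner proteins of carriers only Bsg, basigin, was tested, and it did not pass (log2 fold change 0.19, adjusted p = 0.211).

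Of 27 genes of amino acid sensing upstream of mTORC1, 22 were tested and 18 of these did not pass. The 3 called higher were 13.6% and the 1 called lower was 4.55%, beside 16.0% and 11.6% of all genes. Mtor (log2 fold change 0.50, adjusted p = 0.0331), Rptor (0.33, adjusted p = 0.0361) and Rraga (0.35, adjusted p = 0.0411), which encode the kinase, its partner raptor and a Rag GTPase, were higher. Lamtor3, a subunit of the lysosomal anchor of the Rag GTPases, was lower (-0.53, adjusted p = 0.00565).

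ATF4, a transcription factor made when amino acids are short, drives several carriers of these families, including Slc7a11, Slc7a5, Slc1a4 and Slc38a2. Atf4 itself fell from 74.0 ± 13.9 to 48.6 ± 2.28 FPKM (SD, n = 4 each, log2 fold change -0.58, adjusted p = 0.00795). Of 24 genes on the list of Atf4 and its targets outside the carriers, 15 were tested. Of these, 3 (20.0%) were higher and 2 (13.3%), Atf4 and Asns, were lower, beside 16.0% and 11.6% of all genes. Asns, asparagine synthetase, was at 0.239, 0, 0.803 and 0.121 FPKM in db/db and at 3.16, 3.34, 1.10 and 2.76 FPKM in control libraries, and it passed the filter through the control libraries alone, which fixed its direction (log2 fold change -1.46, adjusted p = 0.0018). Gpt2, an alanine aminotransferase, rose (0.82, adjusted p = 0.000315), as did Atf5 (0.86, adjusted p = 0.00151) and Cth, which makes cysteine (0.80, adjusted p = 0.00345). The list moved in both directions, with a median of 0.06.

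The core of the amino acid response element that ATF4 binds, TGATGNAA on either strand, was searched in the RefSeq promoter windows of build GRCm38.p6, which run from 250 bases before to 50 bases after each gene's start. It was found in 3.97% of all 32851 windows and in 4 of the 66 windows of the members, which belong to Slc1a4, Slc7a11 and Slc7a7. The windows of Slc1a4, at chr11:20332664-20332963 on the minus strand, and of Slc7a11, at chr3:50443564-50443863 on the minus strand, are shown 5′ to 3′ because both genes are known ATF4 targets, of which Slc1a4 was called higher in the fit with no filter and Slc7a11 stayed at or near 0. Capitals mark the matches, whose first bases lie 4 bases before the start in Slc1a4 and 66 and 47 bases before it in Slc7a11. The match in Slc1a4 therefore runs across the start. A match is a description of the sequence and no evidence of binding in these livers.
Slc1a4: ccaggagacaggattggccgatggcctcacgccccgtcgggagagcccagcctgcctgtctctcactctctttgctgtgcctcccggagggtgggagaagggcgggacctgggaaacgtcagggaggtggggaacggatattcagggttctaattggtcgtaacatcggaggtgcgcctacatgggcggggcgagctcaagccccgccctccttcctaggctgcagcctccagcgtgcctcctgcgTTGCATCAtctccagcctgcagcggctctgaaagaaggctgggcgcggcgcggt
Slc7a11: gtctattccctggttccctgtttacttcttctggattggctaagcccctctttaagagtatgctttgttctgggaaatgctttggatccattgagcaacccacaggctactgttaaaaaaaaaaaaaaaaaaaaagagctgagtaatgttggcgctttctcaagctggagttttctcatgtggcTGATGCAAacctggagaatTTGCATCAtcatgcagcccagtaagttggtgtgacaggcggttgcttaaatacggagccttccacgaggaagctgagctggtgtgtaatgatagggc

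NRF2, which answers to oxidative stress, is the other known driver of Slc7a11. All 13 genes on the list of NRF2 and its targets were tested, with a median log2 fold change of 0.77. Of these, 8 (61.5%) were higher and 1 (7.69%), Osgin1, was lower, beside 16.0% and 11.6% of all genes. The 8 include Nfe2l2, the gene of NRF2 itself (log2 fold change 1.06, adjusted p = 0.00273). Gsta2 (2.78, adjusted p = 1.21e-05), Nqo1 (2.23, adjusted p = 2.07e-05) and Srxn1 (1.12, adjusted p = 0.000177) rose, while Slc7a11 stayed at or below 0.0130 FPKM in all 8 libraries.

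Amino acid handling differs along the liver lobule. Of 12 pericentral genes 11 were tested, 3 (27.3%) were higher and 2 (18.2%) lower, beside 16.0% and 11.6% of all genes. Among them were Rhbg, an ammonium carrier (4.67 FPKM in control and 19.9 FPKM in db/db liver on average, adjusted p = 1.9e-05), and Oat, which breaks down ornithine (log2 fold change 1.51, adjusted p = 0.001), both higher, and Notum, an inhibitor of Wnt signals (-1.23, adjusted p = 0.00125), lower. Of 12 periportal genes, all tested, 1 was called (8.33%, beside 27.7% of all genes). It was Gls2, the liver glutaminase, which rose from 203 ± 31.2 to 277 ± 37.8 FPKM (SD, n = 4 each, log2 fold change 0.45, adjusted p = 0.0331).

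In whole liver, fewer cells of a type and less RNA per cell cannot be told apart. Of 8 tested hepatocyte markers, 2 (25.0%) were lower (Ttr and Serpina1a), beside 11.6% of all genes. Of 8 tested Kupffer cell and macrophage markers 3 (37.5%) were lower (Clec4f, Folr2 and Marco, the last fixed by the filter as for Slc6a8). The markers of this list summed to 79.1 to 108 FPKM in db/db and 101 to 169 FPKM in control libraries. Of 10 sinusoidal endothelial markers 3 (30.0%) were lower (Stab1, Fcgr2b and Clec4g), with sums over the 10 of 89.3 to 102 against 117 to 144 FPKM. Another 4 had a fold change above 0, among them Lyve1, which was higher in every db/db library but did not pass (0.60, adjusted p = 0.0528). Of 7 tested stellate cell markers Rgs5 was higher (0.94, adjusted p = 0.000195) and Des lower. The adipocyte marker Retn was higher (2.34, adjusted p = 0.000602) and passed the filter through the db/db libraries alone, while Lep was at 0 in all libraries. Lymphocyte markers, none of which was tested, summed to 0.907 to 1.56 FPKM in db/db and 2.75 to 6.17 FPKM in control libraries. Neutrophil and monocyte markers, 2 tested and 0 called, summed to 2.86 to 12.0 and 6.54 to 68.1 FPKM. Red blood cell markers, 5 tested and 0 called, summed to 305 to 385 and 303 to 894 FPKM. Cholangiocyte markers, 2 tested and 0 called, summed to 35.7 to 53.0 and 29.7 to 51.7 FPKM. Of the 12 tested mitochondrially encoded genes 7 were lower and 1 was higher, but 6 of the 7 rest on exact zeros that can be failed estimates. mt-Co1 was listed at 0 in all db/db libraries, and mt-Nd4, mt-Co3, mt-Atp6, mt-Nd3 and mt-Nd4l were listed at 0 in db/db replicates 1, 2 and 3 but at 63.1 to 4493 FPKM in replicate 4. Of 7 listed pancreas and kidney markers 6 were at 0 in all libraries, and Cela1 was lower in db/db liver (log2 fold change -2.50, adjusted p = 1.12e-06). The part of these differences in the carrier results, including those of Slc3a1 and Slc7a5, was not tested.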

How the data were processed

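RNA was sequenced in 4 db/db and 4 control liver libraries. The authors deposited 1 table of FPKM values per gene and library, made, per the submitters' processing notes, with cutadapt 1.9.3, HISAT2 2.0.4 and Cufflinks or Cuffdiff on mm10. Not given in the sources used here were the versions of the last tools, the annotation and the use of strand. Groups were taken from the strain labels, and 0 per-sample columns were left unused. The table holds no read numbers, so absolute depth and counting intervals are unknown. Relative depth was estimated from the steps between low values.

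Genes that held 1 FPKM or more in 4 or more libraries were fitted with limma 3.58.1 (R 4.3.3) as log2(FPKM + 1) on group, with a mean-variance trend, a 2-sided test and Benjamini-Hochberg adjustment over 9863 genes. The test by which the study called genes in these libraries is not stated in its methods, and its thresholds were run as alternatives with limma's p. Other alternatives were pseudocounts of 0.1 and 5, no filter, a filter on the mean, median-ratio scaling, quantile normalization, array weights, no trend, and each library left out. The limma script was tested on simulated data. Python 3.11.15 was used for the summaries. Values were given per library for genes called or with a group mean of at least 5 FPKM, and for others where a weak or paired member was described, chosen after their values were seen. From each list up to 3 tested genes with the smallest adjusted p were named, plus Atf4 and Glul, and further called genes where a list had few.

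The members and lists were chosen with earlier results of these data known. Slc3a1 and Slc6a8 are among the genes the study names as changed, chosen in part on these libraries, and their calls are not independent of that. Coordinates are from GENCODE M21 (GRCm38), matched by Ensembl ID for 63 of 63 genes, because the locus column of the table merges neighbouring genes. Of the members, 9 share such a locus. Promoter sequences are from RefSeq (GRCm38.p6), with a window for 45 members. One member is not reported by name here.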

Additional observations from a re-analysis of the deposited data

Results flagged for a closer look

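In 42 groups of 4 libraries, the 21 tested genes in db/db and in control liver, the gap between the most extreme library and its nearest neighbour was set against the whole range of the group. A single library stood apart in 3 of them, and chance alone gives about 1 in 20. Slc3a1 was lowest in control replicate 2, at 7.10 FPKM, which is still above every db/db library. Slc6a13 was lowest in db/db replicate 4, at 54.8 FPKM. Slc6a6 was highest in db/db replicate 1, at 11.5 FPKM.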

How the results depend on the processing

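The number of members called higher was 1 and the number called lower was 3. With the threshold as the study words it, an unadjusted p under 0.05 together with a log2 change over 1.5, limma called 0 higher and 0 lower (at that p alone, 1 and 6). The study's own lists hold genes with smaller log2 changes, so these 0 calls do not reproduce how it called genes. limma's changes are of FPKM + 1, which understates the change of weak genes such as Slc6a8. Read as a fold change of 1.5, the study's threshold called 0 higher and 3 lower. With no filter 2 were called higher. Leaving out each library gave 0 to 1 higher and 1 to 5 lower. The sign turned for genes that were never called: Slc7a6os was at -0.02 with median-ratio scaling, at -0.01 after quantile normalization and between -0.03 and 0.09 on leaving out each library (below 0 without control replicate 1), and Slc6a13 was between -0.15 and 0.05 on leaving out each library (above 0 without db/db replicate 4). The causes were not tested. The median over the members, -0.08, ranged from -0.13 with median-ratio scaling to -0.001 with no filter, and was also -0.001, close to 0, without db/db replicate 4. Without genes that passed the filter through 1 group only, chosen after seeing the data, 1 member was higher and 2 lower. No paired analysis was possible because the labels do not pair db/db with control libraries and the 2 groups share only the number 5 in their titles. Levels under 1 FPKM and those in merged loci are the least certain, since no read numbers are given.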
